A study of Gossypium barbadense and Gossypium hirsutum with 4 samples.

Results

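The outermost 1 Mb at each end of the assembled cotton chromosomes held 1829 CENH3 islands, 1.17% of the 156610 islands in the 2 lists of the series. CENH3 is the histone H3 variant that marks the active centromere, and an island is a stretch of chromosome in which the authors' caller found more ChIP reads than scaled input reads. An island was counted here where its midpoint lay within 1 Mb of base 1 (the start) or within 1 Mb of the end of the last island of its chromosome (the end). This gave 764 of 67639 islands in Gossypium barbadense and 1065 of 88971 in Gossypium hirsutum, over 26 chromosomes and 52 ends in each list. Base 1 is a fixed place, whereas a chromosome reaches at least as far as its last island and perhaps farther, so the end windows always hold an island at their edge and may lie some way inside the true end.

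Both species are allotetraploid cottons, in which 13 A chromosomes and 13 D chromosomes make up the subgenomes. All 4 libraries came from leaf collected 4 weeks after planting. Each species had 1 library recovered with an antibody against CENH3 from nuclei digested with micrococcal nuclease, and 1 input library made without antibody. The names of the lists carry Hai7124 for G. barbadense and TM_1 for G. hirsutum, and no line, treatment or number of plants is given in the labels. Since every group is 1 library, spread between plants is unknown, and the species were compared over chromosomes and not over plants. Tests within a list take the 26 chromosomes, or the 13 numbered A and D pairs, as units; they compare places within the same pair of libraries.

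Eukaryotic chromosomes end in telomeres, arrays of a short repeat that protect the chromosome tip, and next to them lie subtelomeres, which often carry repeats shared between chromosomes. CENH3 nucleosomes are known from the centromere, where the kinetochore forms, which in most cotton chromosomes lies well inside the chromosome. ChIP reads per kb of island give the density of reads recovered with the antibody, and input reads per kb give the density of the same DNA without it. The fold of an island is the authors' value, ChIP over input reads scaled for library size.

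The feature that most set the starts apart was an island beginning at the first base of the chromosome. Such an island was present on 25 of 26 chromosomes in G. barbadense and on 26 of 26 in G. hirsutum. It was long, with a median of 16200 bp (range 9800 to 35000 bp) in G. barbadense and 17200 bp (10200 to 41400 bp) in G. hirsutum, against medians of 1200 and 1800 bp over all islands of the lists. It was also dense in reads of both libraries. In G. barbadense the base 1 islands held a median of 383 input reads per kb (range 250 to 562) and 284 ChIP reads per kb (173 to 388). The medians over the whole list were 19 input and 31.3 ChIP reads per kb, so that the input density was 20.2 times and the ChIP density 9.08 times as high.

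The G. hirsutum base 1 islands were alike. Their median was 267 input reads per kb (range 180 to 434) and 297 ChIP reads per kb (166 to 429), which was 15.3 times and 9.23 times the list medians. Their folds were low, from 1.04 to 1.44 with a median of 1.17 in G. barbadense, and from 1.11 to 1.44 with a median of 1.29 in G. hirsutum. Summed over these islands, ChIP exceeded scaled input 1.17 times in G. barbadense (95% exact binomial interval 1.17 to 1.18) and 1.29 times in G. hirsutum (1.28 to 1.30). Such intervals cover counting error only. The caller listed only islands in which ChIP exceeded scaled input, so a ratio above 1 was set in advance. Raw input reads outnumbered raw ChIP reads in all 25 base 1 islands of G. barbadense and in 3 of 26 in G. hirsutum.

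A handful of islands thus carried most of the reads near the chromosome ends. The base 1 islands were 3.27% of the members in G. barbadense and 2.44% in G. hirsutum, and they held 74.2% and 61.2% of the members' ChIP reads and 85.7% and 70.8% of their input reads. Of all input reads inside islands anywhere on the chromosomes, they held 7.03% in G. barbadense and 3.76% in G. hirsutum. All 25 and all 26 ranked among the 50 islands of their list with the most input reads. The base 1 island with the most input reads was on A04 in G. barbadense, from base 1 to 35000, with 6573 ChIP and 10379 input reads. On A12 in G. hirsutum the island ran from base 1 to 32600 with 10150 ChIP and 9208 input reads. Of the 25 chromosomes with such an island in both lists, the fold was higher in G. hirsutum on 21, the input density was higher in G. barbadense on 23, and the island was longer in G. hirsutum on 15. These chromosomes share their libraries and the input densities are raw counts, so library depth cannot be told apart from species.

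The only start without an island at base 1 was that of A01 in G. barbadense. Its first island lay at 42001 to 45600 with 76 ChIP and 66 input reads, or 21.1 and 18.3 reads per kb. The input density is close to the list median, and the ChIP density lies below the lower quartile of the list, 25 reads per kb. The same-named chromosome of G. hirsutum began with an island from base 1 to 15200 that held 4599 ChIP and 3983 input reads. Input density was far lower in the next island. The second island of the chromosome had a median of 31.5 input reads per kb in G. barbadense and 27.7 in G. hirsutum, at a median gap from the base 1 island of 10.2 kb and 3.7 kb. These medians still lay above the upper quartiles of the lists, 26.8 and 21.7 input reads per kb.

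**Figure D1:**
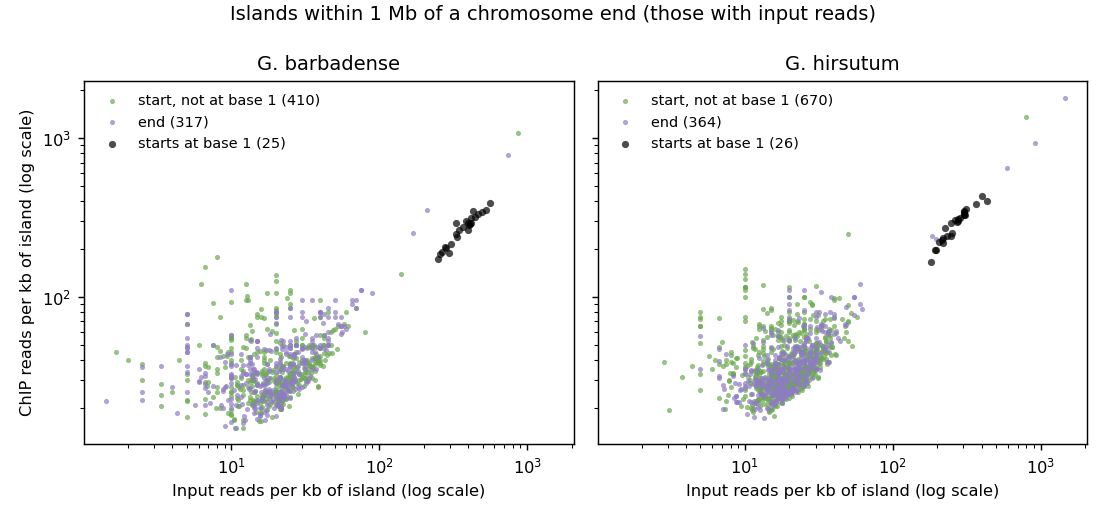
ChIP reads per kb against input reads per kb for each island of the outer 1 Mb that has input reads, both on log scales, with G. barbadense on the left and G. hirsutum on the right. The islands at base 1 (black) form a compact group above 180 input reads per kb in G. hirsutum and from about 250 upward in G. barbadense, and few other islands lie as far to the right.

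The other end of the chromosome had no counterpart. The last island of a chromosome had a median length of 1000 bp in both lists and a median input density of 23.0 reads per kb in G. barbadense and 25.9 in G. hirsutum. Its median fold was 2.72 in G. barbadense (range 1.48 to 15.7) and 1.94 in G. hirsutum (1.22 to 5.42). The lowest fold that can be called depends on read number. Last islands held a median of 30.5 and 40.5 ChIP reads, against 4273 and 4868 in base 1 islands. The folds of these groups are therefore not directly comparable. A single last island reached the density of the base 1 islands, on A09 in G. hirsutum at 83075201 to 83078000, with 2608 ChIP and 2567 input reads (917 input reads per kb, fold 1.22).

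Islands of 100 or more input reads per kb were 30 of the 764 members in G. barbadense (3.93%) and 32 of the 1065 in G. hirsutum (3.0%), against 0.269% and 0.199% of all islands. Apart from base 1, there were 5 in G. barbadense and 6 in G. hirsutum. The one with the most ChIP reads lay near the start of D06 in both lists. In G. barbadense it ran from 573001 to 580200 with 7721 ChIP and 6278 input reads (1072 and 872 reads per kb), a fold of 2.02 (interval 1.95 to 2.08). In G. hirsutum it ran from 455201 to 457800 with 3498 ChIP and 2051 input reads (1345 and 789 reads per kb), a fold of 2.05 (1.94 to 2.17). These folds lay above the highest fold of any base 1 island, 1.44. Measured by ChIP reads above scaled input, the G. barbadense island ranked 2 in its whole list and the G. hirsutum island ranked 11. The lists use different assemblies, so whether these are the same sequence was not tested.

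The end of D11 also carried a dense island in both lists. It lay at 71250201 to 71250400 in G. barbadense, 872 kb from the end of the last island, with 156 ChIP and 148 input reads (740 input reads per kb, fold 1.73). In G. hirsutum it lay at 70652601 to 70654200, 658 kb from the end of the last island, with 2874 ChIP and 2339 input reads (1462 input reads per kb, fold 1.48). Another stood at the end of D08 in G. hirsutum, at 67982201 to 67984800, with 1688 ChIP and 1534 input reads (590 input reads per kb, fold 1.32).

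By number, islands within the first 1 Mb were densest in the 100 kb next to base 1. Leaving out the base 1 islands, G. barbadense had 37.7 islands per Mb in the first 100 kb, 26.2 from 100 to 250 kb, 12 from 250 to 500 kb and 10.8 from 500 to 1000 kb. G. hirsutum had 59.6, 48.7, 19.7 and 15.5 islands per Mb in the same intervals. Without D07, which holds 71 of the 443 start islands of G. barbadense, the G. barbadense values were 33.2, 16.8, 10.2 and 11.04. Beside these, the islands 1 to 5 Mb from the ends stood at 16.1 per Mb in G. barbadense and 18.4 in G. hirsutum. The whole lists stood at 31.0 and 39.7. In G. barbadense the value from 100 to 250 kb without D07 was thus close to that of 1 to 5 Mb. The ends were flatter. Leaving out the last islands, which are there by construction, the outer 100 kb of the ends held 15.8 islands per Mb in G. barbadense and 14.2 in G. hirsutum, and the stretch from 500 to 1000 kb held 11.2 and 12.9.

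**Figure D2:**
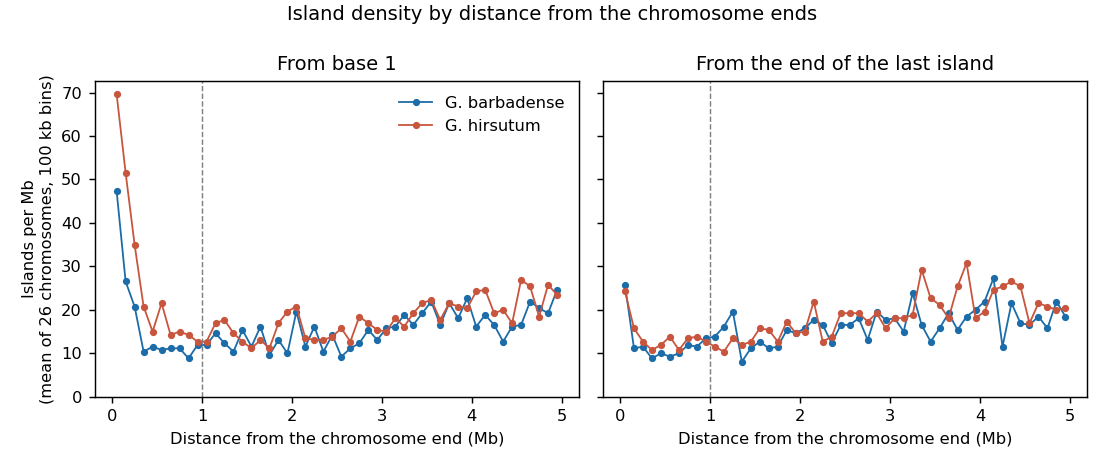
Islands per Mb, averaged over 26 chromosomes in bins of 100 kb, against distance from base 1 (left) and from the end of the last island (right); the dashed line marks 1 Mb. Both lists peak in the bin next to base 1, at 47.3 islands per Mb in G. barbadense and 69.6 in G. hirsutum, base 1 islands included. On the end side the outermost bin stands at 25.8 and 24.2. That bin holds the last island of each chromosome by construction, so its height is not by itself a rise.

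Start and end were then compared over chromosomes. In G. hirsutum the first 1 Mb held a median of 22.5 islands (range 10 to 59) and the last 1 Mb a median of 14.5 (4 to 24). The starts had more islands on 20 chromosomes and the ends on 5, and the ranges overlap. The mean log2 ratio of start to end was 0.84 (SD 0.93 over 26 chromosomes), a 1.79-fold difference, which passed the permutation test by sign flips over chromosomes (two-sided p = 0.00014, Benjamini-Hochberg adjusted p = 0.00112 over 24 tests). It was as large without the first and last islands, at 0.89 (permutation test, adjusted p = 0.00312). In G. barbadense the starts held a median of 14 islands (4 to 71) and the ends 11.5 (7 to 39), with more at the start on 17 chromosomes, more at the end on 6 and equal numbers on 3. The mean log2 ratio was 0.34 (SD 0.75), which did not pass (permutation test p = 0.0306, adjusted p = 0.0917). It passed in a window of 0.5 Mb, at 0.60 (permutation test, adjusted p = 0.023). Whether the start to end ratio differs between the species was not tested.

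Covered length differed between start and end in both lists. Islands covered 3.80% of the start windows and 1.32% of the end windows in G. barbadense, and 8.16% and 2.39% in G. hirsutum. With covered length in place of island number, the mean log2 ratio of start to end was 1.53 for G. barbadense and 1.74 for G. hirsutum (permutation test, adjusted p = 0.00012 in both). These ratios include the base 1 islands, which account for 410.6 kb of the 987.4 kb covered at the starts in G. barbadense and 511.8 kb of 2120.4 kb in G. hirsutum. Without them, islands covered 2.22% of the start windows in G. barbadense and 6.19% in G. hirsutum.

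The starts with the most islands in G. barbadense were those of D07, with 71, and A09, with 42, and the richest end was that of D07, with 39. The fewest were at the start of A06, with 4, followed by 7 islands each at the start of A07 and at the ends of A03, A08, A12 and D01. In G. hirsutum the 3 richest were the starts of D02 (59 islands), A12 (57) and D05 (43). The fewest were at the end of A01, with 4, and at the ends of A12, D05, D10 and D12, with 8 each. No end was without an island in either list. Between same-named starts of the lists, island number had a Spearman rho of 0.37 over 26 chromosomes, and between same-named ends a rho of 0.32. These describe chromosomes that share their libraries, on assemblies whose orientation was not compared.

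**Figure D3:**
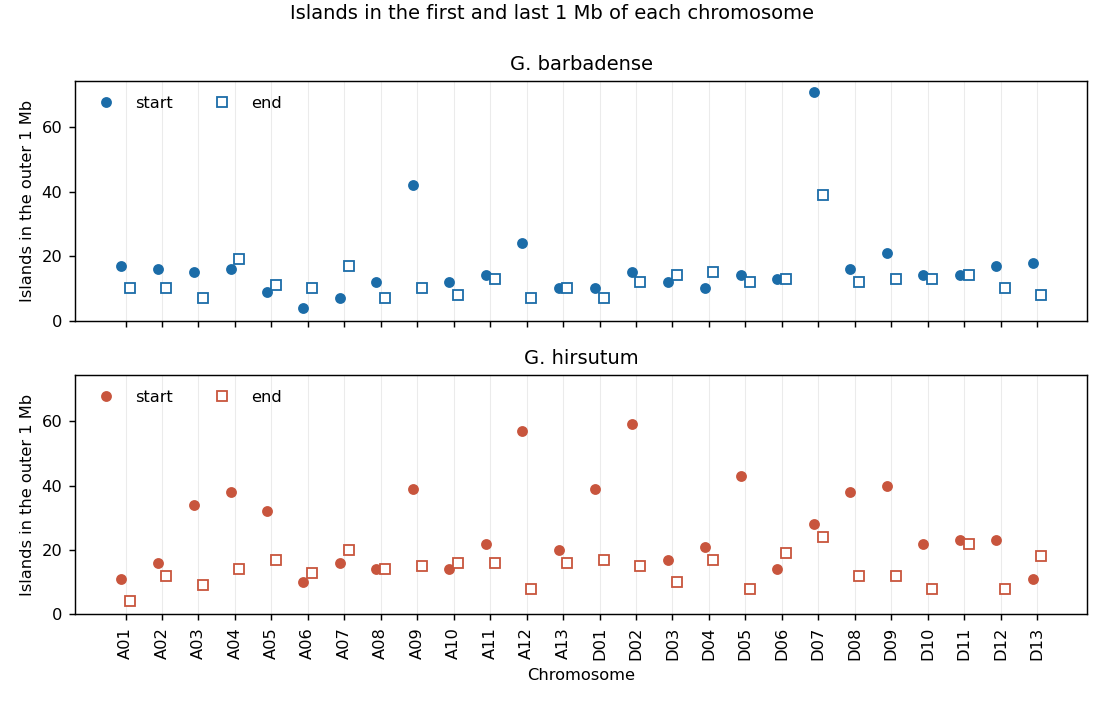
Number of islands in the first 1 Mb (filled circles) and the last 1 Mb (open squares) of each of the 26 chromosomes, with G. barbadense above and G. hirsutum below. D07 stands out at 71 and 39 in G. barbadense, and the starts of D02 and A12 at 59 and 57 in G. hirsutum.

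By median fold the members stood near their lists, and by summed reads they stood below them. Their median fold was 2.55 (interquartile range 1.92 to 4.31) in G. barbadense and 2.11 (1.67 to 2.91) in G. hirsutum, beside 2.49 and 2.17 over all islands. With reads summed first, ChIP over scaled input was 1.36 for the members and 3.08 for the whole list in G. barbadense, and 1.49 against 2.10 in G. hirsutum. Leaving out the base 1 islands, the members' ratio was 2.44 and 1.99. A fold of 4 or more was reached by 208 members in G. barbadense, 27.2% of them, against 28.6% of the whole list. In G. hirsutum it was reached by 140 members, or 13.1%, against 9.75% of the whole list. Islands with 0 input reads were 12 and 5 of these, and recomputing their fold at an input of 3 reads changed neither count.

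Within the outer 1 Mb the strong islands were not spread alike. In G. barbadense they made up 26.4% of start islands and 28.3% of end islands, and in G. hirsutum 16.1% and 7.42%. The start of D07 alone held 50 of the 208 strong members of G. barbadense (24.0%), and without D07 the share over both ends was 22.8%. In G. hirsutum no end held more than 13, found at the starts of D01 and D04, followed by A12 with 12, A04 with 11 and D02 with 10. There were 4 ends without a strong island in G. barbadense and 12 in G. hirsutum.

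The start of D07 in G. barbadense had the highest ratio of ChIP to scaled input of any chromosome end of either list once base 1 islands were left out, 5.72 (interval 5.39 to 6.06). Islands followed each other there at gaps of at most 20 kb from 61001 to 280400, a run of 63 islands that covered 39.2% of 219.4 kb. The run held 4784 ChIP and 1235 input reads, a ratio of 6.35 (95% exact binomial interval 5.96 to 6.77), and 48 of its islands had a fold of 4 or more. The 5 members of highest fold with 10 or more input reads in this list all lay in it. The strongest, at 240401 to 242000, held 193 ChIP and 10 input reads (121 and 6.25 reads per kb), a fold of 31.6 (interval 16.8 to 67.0). The next, at 165601 to 167000, held 130 and 14 reads, a fold of 15.2 (8.75 to 28.6). The others, at 272001 to 273200, 258801 to 260200 and 234401 to 235400, had folds of 14.8, 12.8 and 12.1. Input density in the run was unremarkable, with a median of 13.7 reads per kb. The run was singled out after its values had been seen, and it has no replicate.

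The D07 start of G. hirsutum also carried a run, of 23 islands from 17601 to 222200, with 2744 ChIP and 1268 input reads and a ratio of 2.61 (2.44 to 2.79). Runs of 10 or more islands by the same gap rule numbered 3 in G. barbadense, of which 2 were at starts, and 11 in G. hirsutum, all at starts. These counts cover the outer 1 Mb only. Islands were denser over the rest of the chromosomes, at 31.4 and 40.2 per Mb against 14.7 and 20.5 in the outer 1 Mb. No count of runs there is given, so whether runs are particular to the starts was not tested. The run with the highest ratio in G. hirsutum was on A12, from 100601 to 282800, with 30 islands, 3316 ChIP and 1299 input reads and a ratio of 3.07 (2.88 to 3.28), within counting error of a run of 10 islands on A05 at 3.05 (2.75 to 3.40). On D02 a run from 19601 to 246200 held 29 islands with a ratio of 1.96 (1.86 to 2.07). The G. hirsutum member of highest fold with 10 or more input reads lay on A04 at 122001 to 123200, with 95 ChIP and 17 input reads, a fold of 6.73 (3.99 to 12.03). The other 4 were at the starts of D05, D04 (at 2 places) and D01, with folds of 5.60 to 6.14.

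Adding up the reads of all islands at an end gives the base 1 islands their full weight. In G. barbadense the ratio of these sums ranged from 1.09 to 2.17 over the starts (median 1.24) and from 1.98 to 3.92 over the ends (median 2.55), and it was lower at the start on 26 of 26 chromosomes. Without the base 1 islands the starts ranged from 1.38 to 5.72 (median 2.34), and the start was lower on 19 of 26. In G. hirsutum the ratio ranged from 1.23 to 1.82 over the starts (median 1.43) and from 1.37 to 2.52 over the ends (median 2.004), lower at the start on 24 of 26. Without the base 1 islands the median of the starts was 2.01, and the start was lower on 13 of 26. The median fold per end, in which the base 1 island is 1 island among many, did not pass in a comparison of start with end (permutation test, adjusted p = 0.461 in G. barbadense and 0.945 in G. hirsutum). With summed reads it did, at a mean log2 ratio of -1.02 and -0.44 (permutation test, adjusted p = 2.67e-05 in both).

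**Figure D4:**
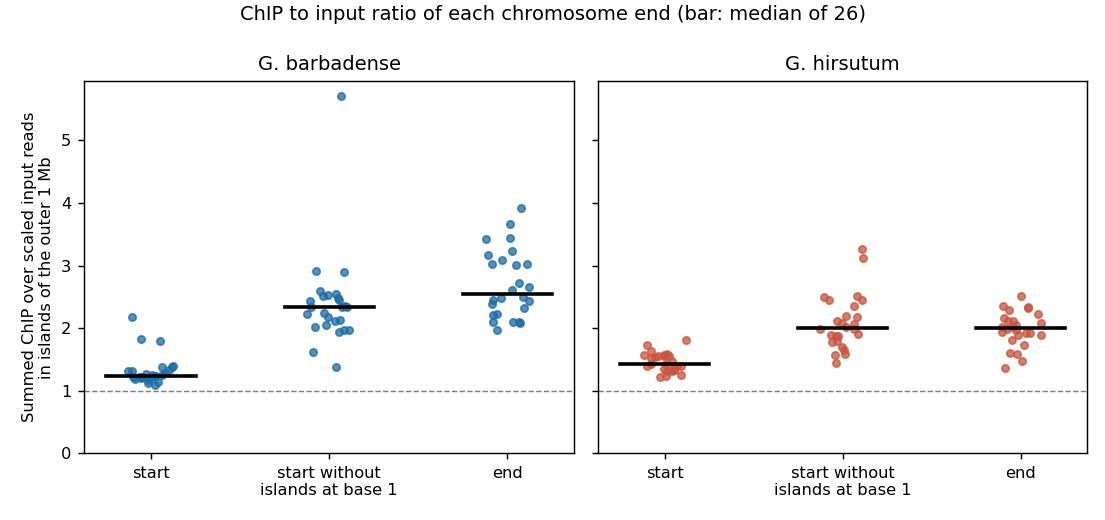
ChIP reads over scaled input reads, each summed over an end's islands (outer 1 Mb), 1 point per chromosome and a bar at the median of 26, for the starts, the starts without islands at base 1, and the ends. The starts sit near 1.24 in G. barbadense and 1.43 in G. hirsutum, and move to 2.34 and 2.01 once the base 1 islands are left out.

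Among ends of 5 or more islands, the 3 highest ratios in G. barbadense were at the ends of D09 (3.92, interval 3.24 to 4.75), A12 (3.66, 2.95 to 4.56) and A05 (3.44, 2.85 to 4.17). The 3 lowest were at the starts of A04 (1.09), D05 (1.14) and A13 (1.17), and the start of A06, with 4 islands, had 1.12. In G. hirsutum the highest were at the ends of A10 (2.52, interval 2.26 to 2.82), D10 (2.35) and D12 (2.34). The lowest there were at the starts of D13 (1.23), D11 (1.24) and A06 (1.26). Every one of the lowest ends by this measure was a start with a base 1 island.

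Members were next set beside the islands 1 to 5 Mb from the same ends, of which there were 3359 in G. barbadense and 3818 in G. hirsutum. Reads per kb were slightly higher in the outer 1 Mb in both libraries of both species. An island is listed only where ChIP passed the caller's threshold over scaled input. Its ChIP density is therefore bound to its input density, and the ChIP and input comparisons are not separate results. The median ChIP density per chromosome was 33.2 against 30.8 reads per kb in G. barbadense, a mean log2 ratio of 0.15 (SD 0.19), higher on 22 of 26 chromosomes (permutation test, adjusted p = 0.00173). In G. hirsutum it was 34.7 against 31.7, a mean log2 ratio of 0.15 (SD 0.15), also higher on 22 of 26 (permutation test, adjusted p = 0.00112). Median input density was 21.0 against 17.1 reads per kb in G. barbadense (0.24, SD 0.28, higher on 20 of 26, permutation test adjusted p = 0.00114) and 19.5 against 17.5 in G. hirsutum (0.16, SD 0.17, higher on 21 of 26, adjusted p = 0.00112). Among islands of a false discovery rate of at most 1e-05 the G. barbadense input difference did not pass, at 0.16 (permutation test, adjusted p = 0.0781).

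Fold and number showed no steady step at 1 Mb. The median fold per chromosome was lower in the outer 1 Mb of G. barbadense, at 2.44 against 2.87 (mean log2 ratio -0.16, SD 0.29, lower on 18 of 26, permutation test adjusted p = 0.0447), and this call was lost under 6 of 8 alternatives. In G. hirsutum it was 2.07 against 2.12 (-0.014, SD 0.21, permutation test adjusted p = 0.835). Island density was 14.7 per Mb against 16.1 in G. barbadense (permutation test, adjusted p = 0.253) and 20.5 against 18.4 in G. hirsutum (adjusted p = 0.554). Both were well under the densities of the whole lists, 31.0 and 39.7 islands per Mb, and against the rest of the chromosome the mean log2 ratio was -1.20 for G. barbadense and -0.91 for G. hirsutum (permutation test, adjusted p = 8e-05 in both). That reference includes the centromeres. Just inside the 1 Mb limit, at 900 to 1000 kb, there were 66 islands with a median fold of 2.57 in G. barbadense and 66 with 2.23 in G. hirsutum. Just outside, at 1000 to 1100 kb, there were 67 with 3.01 and 63 with 2.14.

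No difference between the A and D subgenomes at their ends passed a test. In G. barbadense an A chromosome held a median of 24 islands over its 2 ends (range 14 to 52) and a D chromosome 27 (17 to 110). In G. hirsutum an A chromosome held a median of 36 (15 to 65) and a D chromosome 45 (27 to 74). Over the 13 pairs the mean log2 ratio of A to D was -0.24 (SD 0.74) for G. barbadense and -0.22 (SD 0.81) in G. hirsutum, and neither passed the exact sign-flip permutation test (adjusted p = 0.478 and 0.524). Chromosomes were paired by number alone, and whether the paired ends correspond by descent was not tested. Without pairs 2 to 5 the ratios were -0.33 and -0.28 over 9 pairs, and neither passed (exact permutation test, adjusted p = 0.487 and 0.531). Without A07 and D07 the G. barbadense value was -0.083 (exact permutation p = 0.558, 12 pairs). ChIP density, input density and fold did not pass either, with exact permutation p-values from 0.0713 to 0.806. The closest was the fold in G. barbadense, at -0.20 (SD 0.37), lower on A in 9 of 13 pairs (exact permutation p = 0.0713, adjusted p = 0.181).

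By subgenome and side, the median ChIP density in G. barbadense was 32.7 reads per kb at A starts, 33 at A ends, 37.5 at D starts and 33.9 at D ends. The median input density was 21.7, 20, 18.3 and 20 reads per kb in the same order. In G. hirsutum the ChIP medians were 36.8, 34.3, 35 and 35, and the input medians 20, 18.7, 18.9 and 20. Strong islands made up 13.1% of A start islands and 37.1% of D start islands in G. barbadense, and 23.6% of D start islands without D07. Over the whole list the shares were 22.2% on A and 39.3% on D. The A starts thus lay below their subgenome. The D starts lay near theirs with D07 counted and, at 23.6%, below it without D07. Of end islands, strong islands made up 26.6% for A and 29.7% for D. In G. hirsutum the shares were 13.6% and 18.3% at A and D starts, and 9.77% and 5.26% at A and D ends, beside 9.70% and 9.90% over all A and all D islands.

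Between the species, 38 of 52 same-named ends held more islands in G. hirsutum, 12 held more in G. barbadense and 2 held equal numbers. The G. hirsutum list is also the denser over whole chromosomes, and depth and antibody yield cannot be told apart from species. Taken relative to the islands 1 to 5 Mb from the ends, the density in the outer 1 Mb was higher in G. hirsutum by a mean log2 difference of 0.33 (SD 0.67), on 21 of 26 chromosomes, which did not pass (permutation test p = 0.0184, adjusted p = 0.0632). Among islands of a false discovery rate of at most 1e-05 the difference was 0.55 (permutation test, adjusted p = 0.0199). The A to D ratio of density, with chromosomes paired by number alone, differed between the lists by 0.022 (SD 1.07 over 13 pairs, exact permutation p = 0.945).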

How the data were processed

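The submitters' processing notes name Trimmomatic, Bowtie2 and SICER, whose versions, like the builds, are not given in the sources used here. From the list names, islands were called with windows of 200 bp, gaps of 400 bp, a false discovery rate of 0.01, on reads tagged uniq. The authors deposited raw counts of ChIP and input reads per island, a fold (a linear ratio of ChIP to scaled input), a p-value and a false discovery rate (q-value). The columns carry no header and were taken to follow SICER's summary format; the fold equalled ChIP over input times 1.64 in G. barbadense and 1.20 in G. hirsutum. Depth is known only inside islands, which held 4068080 ChIP against 2164077 input reads (G. barbadense) and 6132203 against 3522063 (G. hirsutum).

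Values were computed with Python 3.11.15, numpy 2.4.6, pandas 2.3.3 and scipy 1.17.1. Per chromosome, reads per kb and fold were medians over islands; island density had 0.5 added to each count. Log2 ratios were tested by two-sided sign flips, with 100000 resamples over 26 chromosomes or exactly over 13 pairs, with Benjamini-Hochberg adjustment over 24 tests and a threshold of 0.05. Ratios have 95% Clopper-Pearson intervals. The procedure was tested on simulated islands. Islands and ends are named by rank of excess ChIP reads, fold (10 or more input reads), input density, island number and ratio; runs, the D07 start, and the dense islands off base 1 beyond those ranks, were chosen after their values were seen. Members and alternatives were chosen with earlier results of these data known. Coordinates count from 1 on each list's own assembly; gene annotation and sequence were not used here.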

Additional observations from a re-analysis of the deposited data

How the results depend on the processing

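Of the tests, the ChIP density difference between the outer 1 Mb and 1 to 5 Mb from the ends kept its direction and its side of the threshold in both species under all 8 alternatives run for it (mean log2 ratio 0.10 to 1.91 in G. barbadense and 0.11 to 1.44 in G. hirsutum), as did the input difference in G. hirsutum (0.085 to 1.89) and the start to end density ratio in G. hirsutum under 7 (0.53 to 1.74). All these alternatives use called islands, so they share the caller's filter on ChIP over scaled input. Counting an island by any overlap with the window moved 0 islands. No paired analysis was possible because each group has 1 library, so that samples could not be paired; the tests pair places on the same chromosome or A and D chromosomes of the same number.

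With a 0.5 Mb window, values were 0.076 (density, outer against 1 to 5 Mb, G. barbadense, reversed), 0.48 (the same in G. hirsutum, now passing), -0.17 (fold, G. barbadense, no longer passing), 0.60 (start to end density, G. barbadense, now passing) and -0.025 (species difference of A to D density, reversed). With a 2 Mb window they were -0.33 (density, G. barbadense, now passing), -0.20 (density, G. hirsutum, reversed), -0.077 (fold, G. barbadense, no longer passing) and 0.0036 (fold, G. hirsutum, reversed); start to end fold in G. hirsutum was -0.011, and A to D ChIP and input density there were 0.020 and 0.016, all reversed. At a false discovery rate of 1e-05, outer against 1 to 5 Mb gave 0.16 for input and -0.033 for fold in G. barbadense, neither passing, and 0.049 for fold in G. hirsutum (reversed). Start to end fold in G. barbadense was -0.41 and the species difference in density 0.55, both now passing. A to D input in G. barbadense was -0.014, and A to D ChIP and input in G. hirsutum were 0.14 and 0.087, all reversed. The share of strong members was 47.5% and 19.9% at this rate. No share over all islands is given at this rate, so these values cannot be set against the whole-list shares above. Without D07, and with no stricter rate applied, the G. barbadense share was 22.8%.

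Without first and last islands the fold against 1 to 5 Mb in G. barbadense was -0.11 (not passing) and 0.015 in G. hirsutum (reversed); without the 1% of islands densest in input it was -0.12 (not passing) and 0.020 (reversed). With summed reads, start to end fold was -1.02 for G. barbadense and -0.44 for G. hirsutum (reversed), fold against 1 to 5 Mb in G. hirsutum -0.45 and its species difference 0.49, all passing. A to D ChIP was then 0.11 in G. barbadense, and A to D ChIP, input and fold in G. hirsutum 0.30, 0.30 and 0.0072, all reversed. With covered length, density against 1 to 5 Mb was 0.30 in G. barbadense (reversed) and 0.51 in G. hirsutum (passing), and start to end was 1.53 in G. barbadense. Against the rest of the chromosome, density was -1.20 for G. barbadense (passing) and -0.91 in G. hirsutum (reversed), and fold in G. barbadense -0.052 (not passing). Without chromosomes A07 and D07 (like the share without D07, chosen after seeing the data) the species difference of A to D density was -0.11 (reversed). The cause of these changes was not tested. Depth limits what single islands show; the last islands, for example, held a median of 19 input reads in G. barbadense and 25 in G. hirsutum.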
